A study of Mus musculus with 45 samples.

Results

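Perivascular macrophages (pvMΦ) and microglia sorted from the brains of mouse pups at postnatal day 10 (P10) were compared over all genes. The comparison used 6 of the 45 libraries of the series, namely 3 of pvMΦ and 3 of microglia, all from sequencing batch S232, chosen by their labels alone. Both groups came from untreated C57BL/6J mice of genotype Cx3cr1GFP/wt, so 1 allele of the fractalkine receptor gene Cx3cr1 carried GFP in every mouse and all results describe cells of this genotype. The series as a whole followed microglia, pvMΦ and macrophages of the meninges (mMΦ) from embryo to adult by bulk RNA sequencing, and pvMΦ were sampled at P10, P21 and P56. The 3 mMΦ libraries of P10, from the same batch, are given beside the results for reference. Replicates were individual mice by the design text, and in bulk samples fewer cells of a type and less RNA per cell cannot be told apart.

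Perivascular macrophages lie between the wall of brain vessels and the glial lining of the parenchyma, take up material from blood and fluid by scavenger receptors, and belong with the meningeal macrophages to the border-associated macrophages. Microglia are the macrophages of the parenchyma and depend on CSF1 receptor and TGF-β signals. Both descend from early precursors, and in the mouse the perivascular spaces are settled around birth and in the first weeks of life.

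The pvMΦ libraries held 19141764 to 24938737 counts, the microglia libraries 20751253 to 24270739 and the mMΦ libraries 17557385 to 23191073. Mitochondrial transcripts took 0.529 to 0.956% of the counts in these 9 libraries. The 50 most abundant genes took 30.7 to 31.2% of the counts in microglia and 24.4 to 24.9% in pvMΦ. No P10 library stood apart on the principal components of the series. Levels are given in CPM (counts scaled to library size, with TMM factors), and differences as log2 fold changes of pvMΦ over microglia ± SE from edgeR's quasi-likelihood test on the 6 libraries. A gene counted as called when its p, adjusted by Benjamini-Hochberg over all tested genes, was under 0.05.

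At P10 the populations differed widely. Of 12393 genes tested, 2166 (17.5%) were called, 1161 (9.37%) higher and 1005 (8.11%) lower in pvMΦ, and the median log2 fold change of all tested genes was -0.01. These shares are the background for the counts of the gene lists below. A gene was tested if either population alone had enough counts. Lists with members nearly absent from microglia thus lean towards higher calls and medians. The reverse holds for members nearly absent from pvMΦ. The larger differences lay mostly on the pvMΦ side. Of the genes called, 404 were more than 16-fold higher and 58 more than 16-fold lower in pvMΦ. Of the genes higher in pvMΦ, 180 had no count in any microglia library, while 18 of the lower genes had none in pvMΦ. These counts are to be read beside the level of microglial transcripts in pvMΦ, given below (median 9% of the microglial level for 10 genes). The source of those transcripts was not tested. The libraries of the groups did not overlap for 4761 genes (38.4%). When the spread was taken from all 45 libraries of the series instead, 645 of 17064 tested genes were called, 408 higher and 237 lower. List counts given over all 45 libraries are to be read beside these numbers and not beside the 17.5%.

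**Figure D1:**
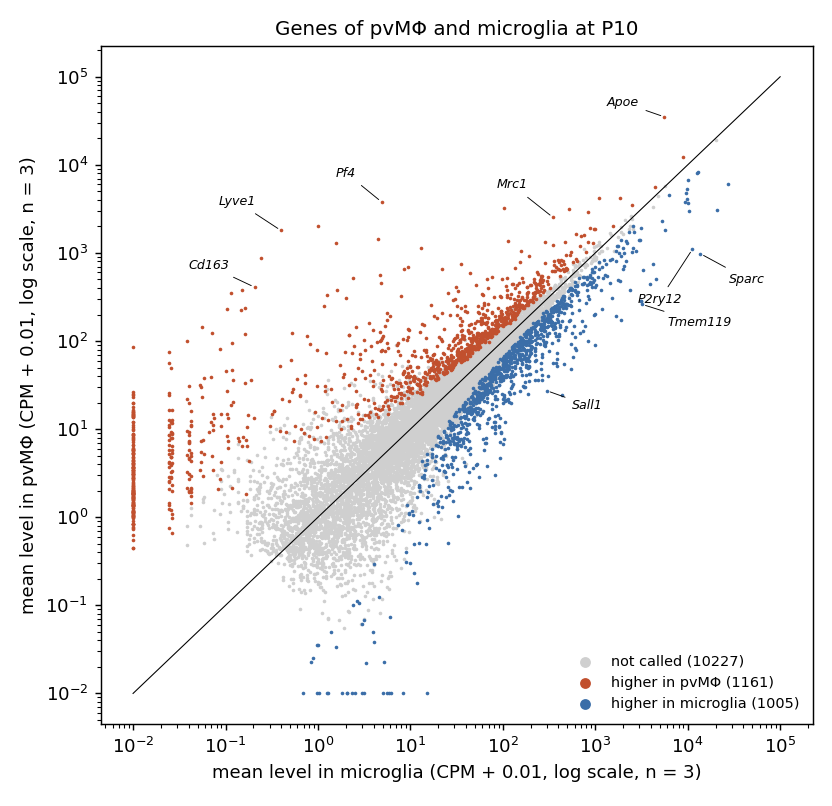
Mean level of each tested gene in microglia (x axis) and pvMΦ (y axis) at P10 in CPM + 0.01 on log scales, n = 3 each. Red points are the 1161 genes called higher and blue points the 1005 called lower in pvMΦ, and the red genes reach much farther from the line of equal levels, up to the left edge where microglia had no counts.

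All 27 tested border macrophage markers were higher in pvMΦ, with a median log2 fold change of 8.35 (8.14 with genes lacking counts at their bounds). Lyve1, the hyaluronan receptor by which these cells are usually recognised, was at 1829, 1659 and 1923 CPM in pvMΦ and at 0.487, 0.34 and 0.335 CPM in microglia. The log2 fold change was 12.19 ± 0.17 (adjusted p = 4.1e-08, edgeR). It was thus abundant in each pvMΦ library and near the limit of detection in each microglia library. Cd163, the receptor for haemoglobin-haptoglobin complexes, was at 442, 328 and 457 CPM against 0.195, 0.298 and 0.0956 CPM (10.98 ± 0.31). Pf4, a platelet-type chemokine and a common marker of border macrophages, was at 3491, 4324 and 3592 CPM against 7.35, 2.93 and 4.3 CPM (9.63 ± 0.36). The spread within each population was small beside these differences.

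Other markers were shared to a degree. Mrc1, the mannose receptor CD206, was at 2537 ± 453 CPM in pvMΦ (SD, n = 3) and already at 348 ± 23 CPM in microglia (2.88). Apoe, the lipoprotein that carries cholesterol between cells, was at 31782, 36365 and 37154 CPM in pvMΦ and 6337, 5330 and 5037 CPM in microglia (2.67 ± 0.10, adjusted p = 3.5e-06, edgeR). Both transcripts were clearly present in microglia of this age and did not overlap between the populations.

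Among the genes at 200 CPM or more in pvMΦ, those with the largest differences were Lyve1, Retnla, Clec4n, Cd38, Cd209f, F13a1, Cd163, Colec12, Clec10a and Ms4a7. Several of them are lectins or scavenger receptors: Clec4n (dectin-2, 11.60 ± 0.25), Cd209f (11.20 ± 0.33), Clec10a (10.56 ± 0.30) and the collectin Colec12 (10.64 ± 0.27). F13a1, the A chain of coagulation factor XIII, was at 2040, 1754 and 2283 CPM in pvMΦ against 1.22, 1.06 and 0.717 CPM (10.99 ± 0.22). Cd38, an enzyme that consumes NAD, was at 373, 428 and 350.4 CPM against 0.195, 0.128 and 0.0956 CPM (11.40 ± 0.23). Retnla, secreted by macrophages in type 2 responses, varied between pvMΦ libraries, at 1446, 563 and 649.8 CPM, and was at 0.341, 0.213 and 0.143 CPM in microglia (11.89 ± 0.59). It was not called by limma, the only alternative in which it lost its call. Apart from Retnla, each gene listed above at 200 CPM or more had a higher mean in mMΦ than in pvMΦ. Clec4n was at 757 CPM and Cd209f at 639.7 CPM in mMΦ, both called (adjusted p = 0.00042 and 0.00023, edgeR). Cd38, F13a1, Cd163 and Ms4a7 were not called between pvMΦ and mMΦ. Copies of the Cd209 and Ms4a families resemble each other, and how reads were split between them is uncertain.

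For genes without counts in microglia the difference is a bound, taken from a floor of 3 counts over the group and, like the intervals below, it covers only the error of counting, as amplified reads without molecular tags need not be separate molecules. Serpinb8, a protease inhibitor, was at 80.2, 72.4 and 104 CPM in pvMΦ and at least 1873-fold higher than in microglia. Bounds of at least 553-fold for Gypc, a membrane skeleton protein, 543-fold for Thbd (thrombomodulin), 535-fold for the formyl peptide receptor Fpr1 and 504-fold for the co-stimulatory receptor Cd40 followed. Further such genes were Aldh1a1, a retinaldehyde dehydrogenase (at least 430.2-fold), Cd209g (419-fold), the interferon-induced GTPase Iigp1 (388-fold), Vnn3 (358-fold) and the chemokine Cxcl12 (351-fold). Mndal, of the interferon-inducible p200 family, had 1 count in microglia and a ratio of 4981 with a 95% exact counting interval of 894 to 196780. All of these were also called when the 45 libraries shared the spread. In mMΦ Serpinb8 was at 146 CPM and Cd209g at 78.1 CPM, both called lower in pvMΦ (adjusted p = 0.024 and 0.00093, edgeR). The other genes of this paragraph were not called between pvMΦ and mMΦ.

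Scavenger and endocytic receptors as a list had 19 of 29 tested members higher, 4 lower and 6 not called, with a median of 4.76. Beside the lectins above, Timd4, which binds phosphatidylserine on apoptotic cells, was at 45.3, 77.1 and 46.7 CPM in pvMΦ against 0, 0.0425 and 0 CPM. Cd68, the macrosialin of macrophage lysosomes and endosomes, was at 1709 ± 74.5 CPM against 1914 ± 152 CPM (-0.15 ± 0.09, not called). Mertk, among the 4 lower members, was at 81.6 CPM in pvMΦ against 200.3 CPM in microglia (-1.28 ± 0.14). Uptake receptors thus differed gene by gene, from near absence in microglia through closely similar levels to higher levels in microglia.

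**Figure D2:**
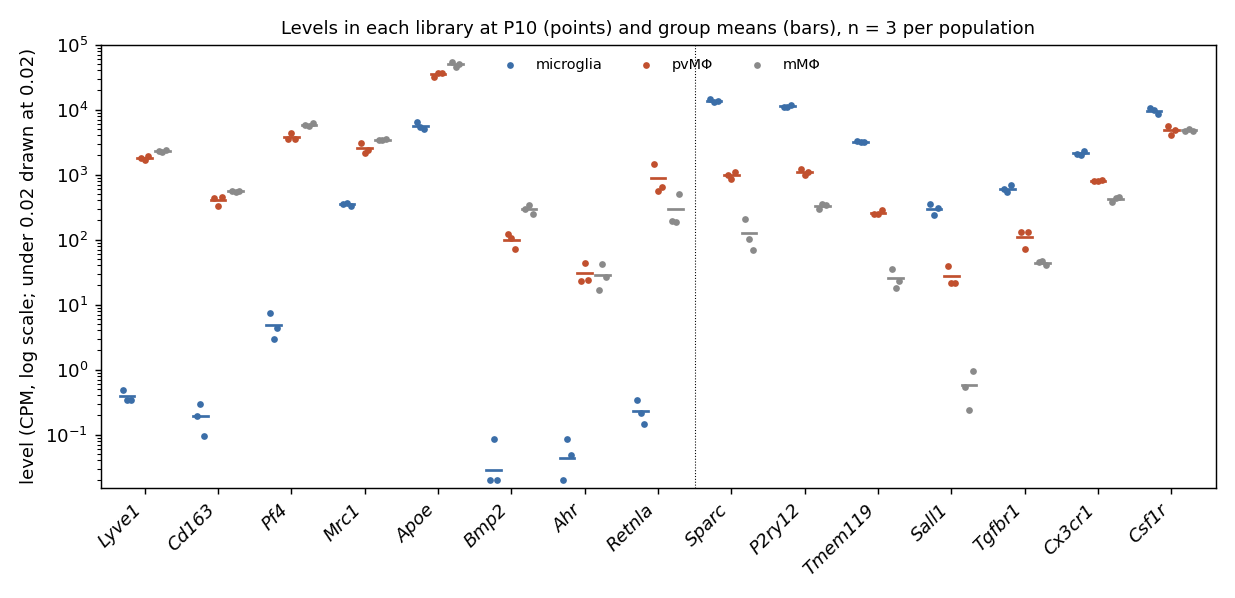
Levels of 15 genes in each P10 library (points, CPM on a log scale) with group means (bars), n = 3 per population, border genes to the left and microglial genes to the right of the dotted line. For the microglial genes from Sparc to Cx3cr1 the pvMΦ points lie between those of microglia and mMΦ; Csf1r was at 4798 CPM in pvMΦ and 4805 CPM in mMΦ.

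All 28 microglia markers were lower in pvMΦ, with a median log2 fold change of -2.80. P2ry12, the ADP receptor of microglial processes, was at 10864, 11040 and 11858 CPM in microglia and 1208, 982 and 1114 CPM in pvMΦ (-3.34 ± 0.10). Tmem119 was at 3302, 3134 and 3182 CPM in microglia and 248, 245 and 289 CPM in pvMΦ (-3.61 ± 0.10, adjusted p = 5.5e-07, edgeR). Sparc, a secreted matrix glycoprotein, was at 14413, 12966 and 13774 CPM in microglia and 994, 859 and 1088 CPM in pvMΦ (-3.79 ± 0.10). In each case the pvMΦ libraries lay close together, far below microglia and well above 0. Other highly expressed genes of this kind were Ecscr (-4.14 ± 0.17), the adhesion receptor Adgrg1 (-3.49 ± 0.22), the fructose transporter Slc2a5 (-3.47 ± 0.18), the selectin ligand Selplg (-3.47 ± 0.09), the protease inhibitor Serpine2 (-3.45 ± 0.12) and the lectin Siglech (-3.44 ± 0.08). When all 45 libraries shared the spread, 26 of the border markers were still called higher and 23 of the microglia markers lower.

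The largest fold changes towards microglia, in contrast, belonged to genes of low level. Myo18b, an unconventional myosin, was at 8.76, 20.2 and 16.1 CPM in microglia, without counts in pvMΦ, and at least 382-fold lower there. Bounds of at least 213-fold for Zfp184, 163-fold for Cmya5, 142-fold for Amer2 and 128-fold for Slc5a10 followed. Gcnt2, a glycan-branching enzyme, had 1 count in pvMΦ and was lower by a ratio of 375 (95% exact counting interval 66.8 to 14851). The remaining genes of this rank were Dyrk4, Golm2, Upk1b, Mlph, Ackr3, Slco4a1, Cacnb2, Igsf10 and Jam2, with log2 fold changes between -6.40 and -4.76. Of these 15 genes Myo18b alone was called when all 45 libraries shared the spread, and 10 of them were lost with the replicate number as a block. Levels such as those of Cmya5, 2.43, 15.3 and 0.526 CPM in microglia, varied widely between mice.

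Microglial transcripts were present in pvMΦ at a fraction of the microglial level. Genes at 200 CPM or more in microglia and at most 2% of that in mMΦ of the same age were picked without use of the pvMΦ libraries, and 10 genes met this rule. In pvMΦ they stood at 5.61 to 15.2% of the microglial level, with a median of 9%, and the medians of the 3 libraries were 9.46, 7.39 and 10.1%. With the wider rule of 50 CPM and 5%, chosen after the data were seen, 50 genes stood at 3.63 to 37.5%, with a median of 11.3%. What part of the microglial transcripts in pvMΦ came from microglia in the sort was not tested, and genes lower in pvMΦ are to be read beside this value.

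Of 39 tested transcription factors of macrophages 6 were higher, 8 lower and 25 not called. Sall1, a zinc finger factor known to keep microglial identity, was at 347, 239 and 311 CPM in microglia, 39.4, 21.3 and 21.3 CPM in pvMΦ (-3.44 ± 0.29) and 0.572 ± 0.352 CPM in mMΦ. Its relative Sall3 was at 36.6, 36.5 and 35.3 CPM in microglia and 2.34, 1.4 and 2.85 CPM in pvMΦ (-4.02 ± 0.37). Towards pvMΦ stood Spic, a factor of iron-recycling macrophages, without counts in microglia and at 11, 11 and 8.18 CPM in pvMΦ (at least 216-fold higher). Ahr, the aryl hydrocarbon receptor, was at 22.8, 43.8 and 24.3 CPM in pvMΦ against 0, 0.085 and 0.0478 CPM (ratio 661, 95% exact counting interval 226 to 3206).

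Maf, a factor of tissue-resident macrophages, was at 754 ± 89.1 CPM in pvMΦ against 464 ± 86.4 CPM in microglia (0.72 ± 0.15, adjusted p = 0.016, edgeR; 0.07 over all 45 libraries). Irf8, a factor of the whole lineage, was at 341 ± 19.8 against 551 ± 99.6 CPM (-0.68 ± 0.14). Spi1, which encodes PU.1, was at 497 ± 46.1 against 429.6 ± 32 CPM (0.22 ± 0.11, not called), and Mef2c at 543 ± 68 against 686 ± 73.7 CPM (-0.32 ± 0.12, not called). Over all 45 libraries 3 factors were higher and 3 lower.

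In TGF-β and BMP signalling 1 of 30 tested members was higher, 6 were lower and 23 were not called, with a median of -0.58. The share called was 23.3%, beside 17.5% of all tested genes. Of the ligands, Bmp2 was at 120.4, 105 and 72.3 CPM in pvMΦ against 0, 0.085 and 0 CPM in microglia (ratio 3160, 95% exact counting interval 874 to 26095). Tgfb1 was at 159 ± 2.78 against 195 ± 24.8 CPM (-0.28 ± 0.12, not called). Of the receptors, Tgfbr1 was at 131, 70.5 and 129.5 CPM in pvMΦ and 593, 537 and 687 CPM in microglia (-2.44 ± 0.24). Its partner Tgfbr2 was at 244 ± 76.3 against 234 ± 35.7 CPM (0.07 ± 0.23, not called). The chains of this receptor pair therefore differed in how they varied between the populations.

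Among inhibitors of the pathway, Smad7, itself a known TGF-β target, was at 4.41 ± 1.02 against 29.1 ± 6.53 CPM (-2.71 ± 0.36) and Skil at 21.3 ± 7.29 against 108 ± 31.1 CPM (-2.34 ± 0.33). The BMP receptor Acvr1 (-1.56 ± 0.34) and the ligand Gdf15 (-2.04 ± 0.47) were also lower. With all 45 libraries 1 member was called higher and 2 lower, Tgfbr1 and Skil among the lower.

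The CSF1 receptor axis had 0 of 12 tested members higher, 3 lower and 9 not called. Called members made up 25%, beside 17.5% of all tested genes. Csf1r, the growth factor receptor both populations need, was at 5534, 4018 and 4842 CPM in pvMΦ and 10599, 9749 and 8554 CPM in microglia (-0.99 ± 0.13, adjusted p = 0.0016, edgeR). Its ligand Csf1 was at 7.76 ± 2.48 against 25.2 ± 5.26 CPM and the phosphatase Inpp5d at 148 ± 20.1 against 308 ± 82.6 CPM (-1.04 ± 0.20). The signalling adaptor Tyrobp was at 1657 ± 184 against 2010 ± 108 CPM (-0.26 ± 0.10, not called). The count of 3 fell to 1 without pvMΦ replicate 3 and rose to 5 without microglia replicate 2.

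Chemokines and cytokines had 17 of 35 tested members higher, 6 lower and 12 not called, with a median of 1.19. Several CC chemokines were on the pvMΦ side. Ccl7 was at 449, 477 and 429.9 CPM in pvMΦ against 2.53, 7.18 and 4.73 CPM (6.55 ± 0.37), Ccl2 at 444, 438 and 416 CPM against 44, 51.9 and 58.6 CPM (3.09 ± 0.14), and Ccl24 at 351, 399 and 370.3 CPM against 46.8, 21.4 and 30.8 CPM (3.52 ± 0.27). Ccl8 (9.57 ± 0.58) and Ccl12 (1.69 ± 0.13) were higher as well. Il1b, the inflammatory interleukin, was at 296 ± 71.7 CPM against 29.1 ± 8.08 CPM (3.36 ± 0.26). These genes were high in each pvMΦ library, with no overlap.

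Other chemokines stood on the microglial side. Ccl3 was at 119 ± 25.7 CPM in pvMΦ against 256 ± 63.3 CPM in microglia (-1.10 ± 0.22), and Ccl4 at 144 ± 31.4 against 413 ± 53.1 CPM (-1.51 ± 0.18). Neither was called over all 45 libraries (adjusted p = 0.25 and 0.18, edgeR). Tnf was at 40.6 ± 10.7 against 74.2 ± 24.9 CPM (-0.86 ± 0.31, not called), and Il10 was listed at 10.6, 10.9 and 9.45 CPM in pvMΦ against 0, 1.15 and 0 CPM, also not called.

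Chemokine and cytokine receptors leaned the opposite way, with 7 of 35 tested members higher, 12 lower and 16 not called (4 higher and 6 lower over all 45 libraries). Cx3cr1, whose locus carries the reporter, was at 789.8, 803 and 828 CPM in pvMΦ and 2090, 2030 and 2325 CPM in microglia (-1.40 ± 0.08), so the sorted pvMΦ had less of this transcript. The interferon-γ receptor chain Ifngr1 at 716 ± 30.4 against 2062 ± 122 CPM (-1.51 ± 0.08) and Il10ra at 114 ± 37 against 397 ± 85.6 CPM (-1.79 ± 0.26). Higher were Ccr1, at 417 ± 36.2 against 108 ± 14.2 CPM (1.96 ± 0.13), and Cxcr3 (3.68 ± 0.53). Ccr2, the receptor of classical monocytes, had no call, with 5.65 ± 1.17 against 6.12 ± 2.95 CPM.

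Of the interferon response list, 20 of 28 tested members were higher in pvMΦ, 0 lower and 8 not called, with a median of 3.20. Over all 45 libraries 14 were higher and 0 lower. Members nearly absent from microglia, such as Oas1g and Ifi211, were tested through pvMΦ alone, which leans this count and median towards higher values. Irf7, the factor that amplifies type I interferon, was at 61.2, 55.2 and 49.4 CPM against 1.85, 9.1 and 3.92 CPM (3.48 ± 0.56). Isg15, the ubiquitin-like modifier, was at 29.2, 36.4 and 28.3 CPM against 7.45, 2.76 and 4.54 CPM (2.69 ± 0.42), and these 2 were not called over all 45 libraries. The DNA-sensing p200 family held members far apart, Ifi207 being at 138, 112 and 122 CPM against 0.487, 0 and 1.05 CPM (7.95 ± 0.74). The oligoadenylate synthetases Oas2 (7.50 ± 1.06) and Oas1a (4.04 ± 0.34) were also higher. Stat2, which carries the interferon signal to the nucleus, was not called (0.65 ± 0.29). The levels of mMΦ were close by for Irf7, at 52.3 ± 11.5 CPM, and for Isg15, at 34.8 ± 5.75 CPM. Ifi207, in contrast, was at 495 CPM in mMΦ against 124 CPM in pvMΦ (-2.02 ± 0.16, adjusted p = 0.00021, edgeR). Tested against mMΦ, 0 of 31 members were higher in pvMΦ, 3 lower and 28 not called, beside 2.59% of all tested genes lower. Reads of the Oas1 and p200 copies may be split between near-identical genes.

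Promoters are shown for the 3 called members of this list with the largest fold change among those with an interferon-type element. The element is GAAA followed by any 2 bases and GAAA, on either strand in the 250 bases before the start. Sequences are from RefSeq (GRCm38.p6), 5′ to 3′ on the strand of the gene, which is the minus strand for all 3, and end at the base before the annotated start. Capitals mark the element. Oas1g lies at chr5:120887614-120887863, Ifi211 at chr1:173913047-173913296 and Ifi207 at chr1:173741810-173742059.
Oas1g: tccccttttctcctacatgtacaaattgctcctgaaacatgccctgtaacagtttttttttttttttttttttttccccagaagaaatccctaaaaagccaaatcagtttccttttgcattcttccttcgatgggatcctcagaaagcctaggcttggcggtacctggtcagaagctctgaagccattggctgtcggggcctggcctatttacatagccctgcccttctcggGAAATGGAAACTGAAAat
Ifi211: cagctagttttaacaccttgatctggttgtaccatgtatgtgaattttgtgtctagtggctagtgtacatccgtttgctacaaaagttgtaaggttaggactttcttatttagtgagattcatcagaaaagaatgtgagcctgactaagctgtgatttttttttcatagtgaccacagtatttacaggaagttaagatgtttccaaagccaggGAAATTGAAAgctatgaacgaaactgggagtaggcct
Ifi207: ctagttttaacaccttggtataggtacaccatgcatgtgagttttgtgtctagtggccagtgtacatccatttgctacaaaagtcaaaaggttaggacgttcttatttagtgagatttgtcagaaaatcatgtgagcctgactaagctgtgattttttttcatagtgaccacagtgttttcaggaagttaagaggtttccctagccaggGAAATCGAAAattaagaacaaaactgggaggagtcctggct
In Oas1g 2 matches overlap, beginning 18 and 12 bases before the start, and in Ifi211 and Ifi207 the match begins 37 and 41 bases before it. These genes were at 12.7 ± 3.07, 21.8 ± 0.598 and 124 ± 12.8 CPM in pvMΦ and at 0.0162, 0.0283 and 0.513 CPM on average in microglia. Of the 15 called list members in the promoter table, 9 held the element in the 300-base window, and no share was taken for uncalled members. It was present in 5.32% of the promoters of all genes higher in pvMΦ, 3.55% of those higher in microglia and 3.22% of all tested. A match is a description of the letters and not of a bound site.

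Other elements were searched in the same windows on both strands. The PU.1 element GAGGAAGT was in 6.32% of 760 promoters of genes higher in microglia, 3.55% of 902 of genes higher in pvMΦ and 3.37% of 9403 of all tested genes. The AP-1 element TGANTCA was in 4.21%, 6.87% and 4.68% of these, and the MAF element TGCTGAC in 3.82%, 4.21% and 3.59%. No test was made of these shares.

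Antigen presentation showed no common direction. Of MHC class I and peptide loading genes 5 of 17 tested rose, 2 fell and 10 were not called. H2-D1 was at 1594 ± 219 against 747 ± 67.1 CPM (1.11 ± 0.12) and H2-K1 at 723 ± 57.5 against 356 ± 20.1 CPM (1.04 ± 0.10), while B2m, their shared light chain, was at 3324 ± 121 against 4247 ± 900.2 CPM without a call. The 9 tested MHC class II genes gave 2 higher and 4 lower calls, and over all 45 libraries the counts were 0 and 1. The peptide-loading gene H2-DMa was at 49.7, 58.8 and 51.2 CPM in pvMΦ against 171, 189.8 and 178 CPM (-1.74 ± 0.14), and H2-Oa at 5.9 ± 0.417 against 31.8 ± 3.21 CPM (-2.42 ± 0.28). The invariant chain Cd74 was slightly higher, at 328, 306 and 242 CPM against 187, 221 and 182 CPM (0.58 ± 0.15). H2-Eb1, H2-Ab1 and H2-Aa were low in both populations, and pvMΦ replicate 1 held most of their counts, with 38.1, 62.5 and 47.5 CPM against at most 10.5 CPM in the other 2 pvMΦ libraries.

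Fc receptors and complement split evenly, with 8 of 22 tested members higher, 9 lower and 5 not called. C5ar1, the receptor for the complement fragment C5a, was at 796, 853 and 747 CPM against 154, 137 and 167 CPM (2.40 ± 0.11), and properdin (Cfp) at 501, 514 and 551 CPM against 1.41, 0.128 and 5.69 CPM (7.79 ± 0.87). C2 and C4b, components of the classical pathway, were higher too (5.96 ± 1.36 and 5.58 ± 0.53). Itgam, which encodes CD11b of complement receptor 3, was lower, at 56.5 ± 10.9 against 349 ± 25.1 CPM (-2.62 ± 0.16). The shared Fc receptor chain Fcer1g was at 2607 ± 167 against 2434 ± 238 CPM (0.11 ± 0.10, not called).

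Pattern recognition receptors had 5 of 28 tested members higher, 4 lower and 19 not called. Tlr8, an RNA sensor, was at 29.1, 14.6 and 32.8 CPM in pvMΦ against 0, 0.0425 and 0 CPM (ratio 1660, 95% exact counting interval 297 to 65582), and dectin-1 (Clec7a) at 68.3 ± 9.85 against 15 ± 3.1 CPM (2.20 ± 0.24). Cd180 (-1.66 ± 0.27) and its partner Ly86 (-1.27 ± 0.08) were both lower. The 28 tested purinergic and other G protein-coupled receptors gave 7 higher and 11 lower calls, with 10 left without one. The endothelin receptor Ednrb was at 705, 534 and 744 CPM against 27.2, 20.2 and 18.2 CPM (4.93 ± 0.21) and the proton sensor Gpr65 at 97.7 ± 4.02 against 4.3 ± 0.819 CPM (4.52 ± 0.23). The adenosine receptor Adora3 was at 7.64 ± 1.18 against 104 ± 14.9 CPM (-3.75 ± 0.22). Adgre1, the gene of the F4/80 antigen, had no call, with 1501 ± 92.1 against 1766 ± 115 CPM.

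Adhesion molecules and integrins were mostly lower, with 6 of 27 tested members higher, 15 lower and 6 not called, and a median of -1.37 (4 higher and 8 lower over all 45 libraries). Pecam1 was at 2.14 ± 1.58 against 44.5 ± 6.54 CPM (-4.35 ± 0.57), Itgb3 at 1.79 ± 1.04 against 26.3 ± 14.2 CPM (-3.86 ± 0.66) and the junctional molecule Jam2 at 2.99 ± 2.5 against 82.3 ± 10.5 CPM (-4.76 ± 0.58). In the other direction stood the integrin chains Itga4, which pairs to form VLA-4, at 28.2 ± 6.72 against 0.532 ± 0.392 CPM (5.72 ± 0.72), and Itgal (5.44 ± 1.53). Matrix and protease genes divided, with 11 of 26 higher, 10 lower and 5 not called. Mmp9, a gelatinase, was at 165, 124 and 148 CPM in pvMΦ against 0, 0.0425 and 0.0956 CPM (ratio 3134, 95% exact counting interval 1072 to 15198). The collagen IV chains of basement membranes, Col4a1 (at least 188-fold higher) and Col4a2, were low, at 8.65 ± 1.92 and 4.81 ± 3.03 CPM.

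Iron and haem handling had 11 of 20 tested members higher, 2 lower and 7 not called, with a median of 0.95. With Cd163 and Spic, described above, moved the enzymes that break down haem. Hmox1, which opens the haem ring, was at 116, 308 and 333 CPM against 31.9, 31.7 and 98.3 CPM (2.24 ± 0.56). Biliverdin reductases followed, Blvrb at 487, 528 and 519 CPM against 59.7, 62.8 and 78 CPM (2.95 ± 0.14) and Blvra at 269.7 ± 18.7 against 62.2 ± 17 CPM (2.13 ± 0.21). Hmox1 varied most between mice and was not called over all 45 libraries. Summed erythroid markers were at 1.33 to 179 CPM in pvMΦ, with 1 library above the others, and 0.0425 to 0.341 CPM in microglia; their part in these results was not tested.

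Lipid genes leaned towards pvMΦ, with 8 of 23 tested members of uptake, transport and efflux higher, 5 lower and 10 not called. The scavenger receptors Msr1, at 227, 251 and 277 CPM against 1.56, 0.723 and 1.19 CPM (7.78 ± 0.28), and Cd36, at 728, 635 and 715 CPM against 11.5, 7.18 and 9.75 CPM (6.21 ± 0.20), were among them. So were the phospholipid transfer protein Pltp (7.28 ± 0.26) and Plin2, which coats lipid droplets, at 683 ± 78.3 against 137 ± 15.1 CPM (2.33 ± 0.13). In cholesterol synthesis 1 of 23 was higher, 3 were lower and 19 not called, with no member called over all 45 libraries. Its share called, 17.4%, was close to the 17.5% of all tested genes. In glycolysis 4 of 24 were higher, 6 lower and 14 not called, Ldhb being at 78.4 ± 7.3 against 621 ± 71.8 CPM (-2.97 ± 0.13) and Ldha at 334 ± 28.6 against 322 ± 26.3 CPM (not called).

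Lysosomal genes had 6 of 38 tested members higher, 12 lower and 20 not called. Cathepsins divided: Ctss was at 2958 ± 231 against 10319 ± 755 CPM (-1.79 ± 0.09) and Ctsl at 1842 ± 105 against 5615 ± 447 CPM (-1.59 ± 0.09), but Ctsc at 4252 ± 223 against 1105 ± 184 CPM (1.96 ± 0.13). Lamp1, a protein of the lysosomal membrane, was at 2448 ± 98.9 against 2515 ± 97.8 CPM (-0.03 ± 0.07, not called). Of genes known from amoeboid and lipid-associated microglia, 14 of 27 were higher in pvMΦ, 8 lower and 5 not called (7 and 3 over all 45 libraries). Igf1, a growth factor, was at 409, 314 and 330.4 CPM against 19.7, 29.4 and 26.8 CPM (3.81 ± 0.20), and the galectin Lgals1 at 1073, 1344 and 1029 CPM against 23.3, 9.01 and 6.98 CPM (6.48 ± 0.49).

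**Figure D3:**
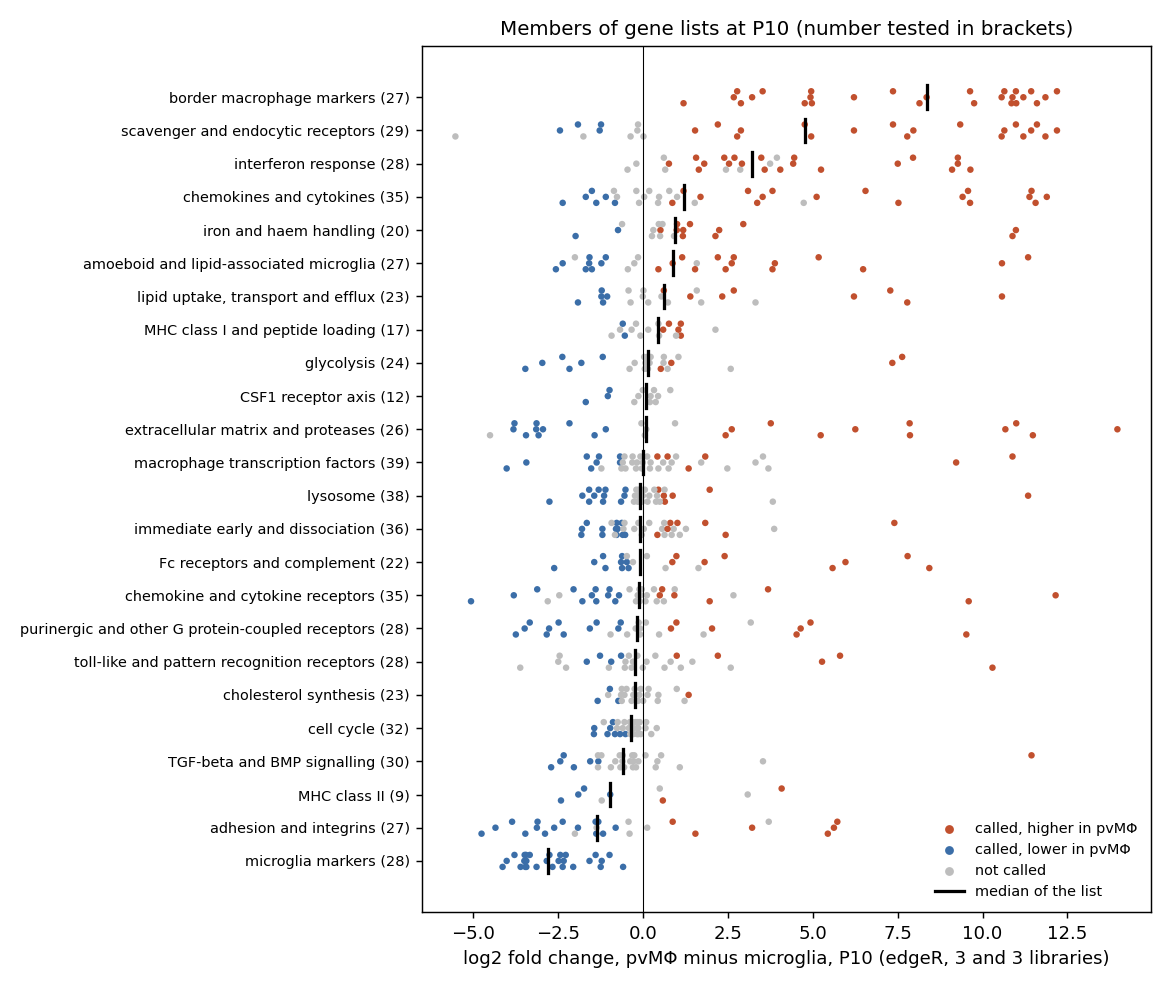
Log2 fold changes (pvMΦ over microglia, P10, x axis) of the tested members of 24 gene lists, one row per list with the number tested in brackets, coloured by call, with the median as a bar. All 27 border markers lie to the right and all 28 microglia markers to the left of 0, and most other lists hold called members on both sides.

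Cell cycle genes were slightly below microglia at the median, with larger gaps for some such as Mki67, and far above mMΦ. Among the 32 tested genes 8 fell relative to microglia, 0 rose and 24 had no call, 28 had a log2 fold change below 0, and the median was -0.35. The share called was 25%, beside 17.5% of all tested genes (8.11% lower). Their levels summed to 2117 to 2347 CPM in pvMΦ, 2661 to 3253 CPM in microglia and 635 to 828 CPM in mMΦ, with no overlap between the populations. Mki67, the proliferation marker Ki-67, was at 57.5, 37.2 and 42.5 CPM in pvMΦ, 127, 136 and 111 CPM in microglia (-1.44 ± 0.20) and 10.4 ± 3.27 CPM in mMΦ. Top2a, a topoisomerase of S and G2 phase, was at 104 ± 31.4, 195 ± 17.6 and 17.7 ± 10.8 CPM, and the replicative helicase subunit Mcm6 at 189 ± 19.1, 145 ± 14.9 and 66.9 ± 3 CPM.

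Tested against mMΦ (3 and 3 libraries), where 538 of 12608 genes were called (4.27%), 211 higher (1.67%) and 327 lower (2.59%), 21 of the 32 cell cycle genes were higher in pvMΦ, 0 lower and 11 not called, with a median of 2.02. Rrm2, a ribonucleotide reductase subunit, had a log2 fold change of 2.95 over mMΦ (adjusted p = 0.0004, edgeR) and -1.05 ± 0.23 against microglia (adjusted p = 0.018, edgeR). The number of lower calls against microglia varied with the setting, with 0 of 32 over all 45 libraries, 3 to 5 when a library was left out and 3 with the 9 libraries of P10, though 13 with the DESeq2 Wald test. The part of microglial RNA in these values was not tested.

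**Figure D4:**
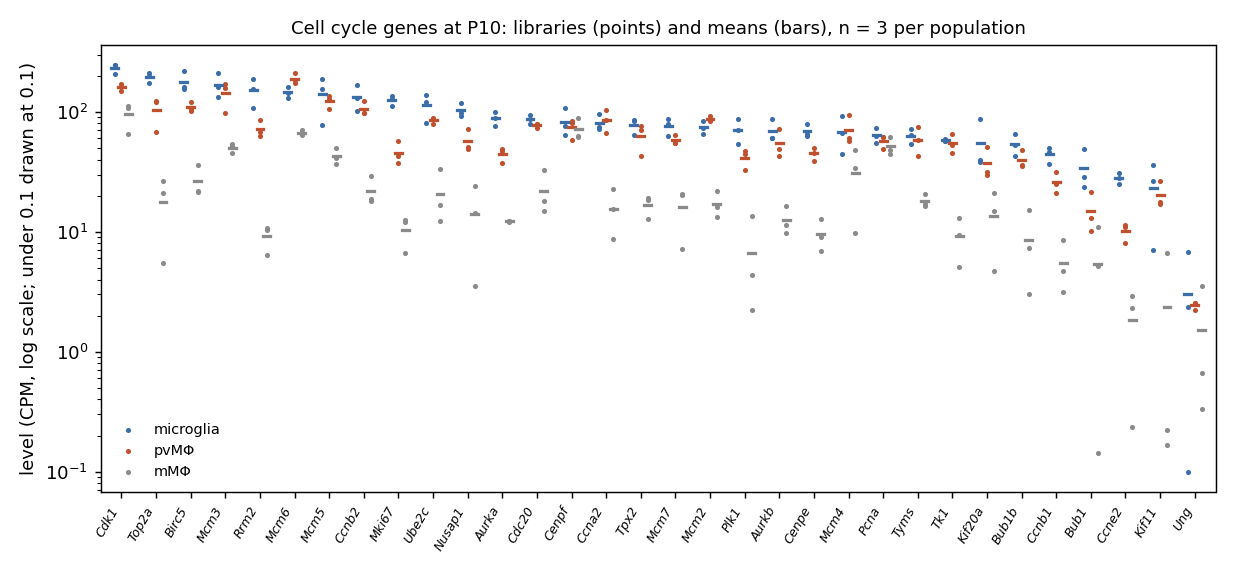
Levels of the 32 tested cell cycle genes in each P10 library (points, CPM on a log scale) with means (bars), n = 3 per population, ordered by the microglial mean. The pvMΦ means lie mostly below those of microglia and mostly above those of mMΦ, as for Mki67 at 45.7 CPM in pvMΦ, 125 CPM in microglia and 10.4 CPM in mMΦ.

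Immediate early and dissociation genes, which rise when tissue is handled, did not move one way between pvMΦ and microglia: 7 of 36 tested were higher, 12 lower and 17 not called, with a median of -0.09. Their sums were 8281 to 9882 CPM in pvMΦ and 8957 to 12418 CPM in microglia, against 34972 to 41233 CPM in mMΦ. Fos was at 1115 ± 154 against 764 ± 223 CPM and Btg2 at 756 ± 42.3 against 785 ± 44.5 CPM, neither called. Nr4a1 was higher, at 446 ± 41 against 127 ± 30 CPM (1.83 ± 0.18), and Dusp2 lower, at 40.4 ± 4 against 129 ± 15.5 CPM (-1.66 ± 0.16). Against mMΦ 30 of 36 were lower in pvMΦ and 0 higher, so gene differences from mMΦ at this age ran beside a large difference in these transcripts, whose part was not tested.

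Markers of other cells were looked at by list. Of T and NK cell markers 2 of 14 were tested and both were higher: Cd4 was at 95.9, 56.9 and 93 CPM against 0.0973, 0.085 and 0.0478 CPM (9.97 ± 0.43), and Zap70 at 4.65 ± 1.01 CPM. Cd3d, Cd3e, Trac and Nkg7 had no counts in pvMΦ, and Cd4 was at 104 ± 6.74 CPM in mMΦ. Monocyte markers summed to 20 to 25.9 CPM in pvMΦ and 15.7 to 26.7 CPM in microglia. The B cell list was at 386 to 442 against 696 to 957 CPM through Ighm and Cd79b, with Cd79a and Pax5 without counts in either population. Endothelial markers summed to 150.4 to 173 CPM in pvMΦ and 77.3 to 83.1 CPM in microglia, with 1 of 6 tested higher and 1 lower. Egfl7, a secreted vascular factor, was at 136 CPM in pvMΦ against 23 CPM and Pecam1 at 2.14 against 44.5 CPM, while Cldn5, a tight junction gene of brain endothelium, was at 0.981 CPM in pvMΦ. The part of these cells in the results was not tested.

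Fibroblast and leptomeningeal markers summed to 64.6 to 98.2 CPM in pvMΦ, 14.6 to 18.6 CPM in microglia and 139 to 398 CPM in mMΦ. Of 11 tested, 10 were higher and 1 lower, with a median of 8.23 (7.12 with bounds). The other 9 of the 20 listed were not tested, and 8 of the 20 had no count in microglia. A gene passed the low-count filter if 1 population alone had enough counts. Members nearly absent from microglia were thus tested only through pvMΦ, which leans the calls and the median towards higher values. This holds for the pericyte, T and NK cell, border marker, scavenger receptor and interferon lists too, and for any other list with such members. The sums include all 20 members. Col3a1 was at 16.2 CPM and Dcn at 15 CPM on average in pvMΦ. Of pericyte and smooth muscle markers 3 of 6 tested (14 listed) were higher and 0 lower, with sums of 20.8 to 34.3 against 1.56 to 6.55 CPM and a median of 5.30 (4.22 with bounds). Of the pericyte markers 0 were called without any 1 of the pvMΦ libraries and 1 without any 1 of the microglia libraries. The part of such cells in matrix genes such as Col4a1 was not tested.

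Against mMΦ of the same age, 14 of the 28 tested border markers were lower in pvMΦ, 1 was higher and 13 were not called, with a median of -0.58. Genes at 200 CPM or more in mMΦ and at most 2% of that in microglia numbered 29. This rule asks for a high level in mMΦ, which by itself leans the shares below towards lower values in pvMΦ. For these genes pvMΦ stood at 13.2 to 302% of the mMΦ level, with a median of 64.6%. Of these, 7 were below 50% and 1 above 100%. Chemokines were among the lowest: Cxcl2 was at 134 CPM against 1014 CPM in mMΦ (-2.94 ± 0.11) and Ccl7 at 452 against 1648 CPM (-1.89 ± 0.09). Lyve1 was at 1803 against 2334 CPM (-0.39 ± 0.08, adjusted p = 0.036, edgeR). The 1 gene above was Retnla, at 886 ± 487 CPM against 293 ± 180.2 CPM (1.57 ± 0.47, adjusted p = 0.12, edgeR), which was not called. This comparison shares its pvMΦ libraries with that against microglia.

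The same contrast was made at later ages in other mice (4 pvMΦ and 5 microglia libraries each at P21 and P56), with a term for the sequencing batch. At P21 891 of 11558 genes were called (7.71%), 545 higher (4.72%) and 346 lower (2.99%), and at P56 465 of 11057 (4.21%), 309 higher (2.79%) and 156 lower (1.41%). Of the genes higher in pvMΦ at P10 and tested later, 421 of 949 were called higher at P21 and 224 of 931 at P56, and 0 were called lower at either age. Of the genes lower at P10, 257 of 970 were called lower at P21 and 135 of 960 at P56, while 5 and 14 were called higher. The sign was kept by 94.7% and 90.4% of the higher genes and 88.4% and 84.6% of the lower genes at the 2 ages. Fewer calls at these ages do not show smaller differences, as numbers of libraries and their spread differed. Of the 27 border markers called at P10, 26 were tested again and called higher at both ages, and Gfra2 was not tested there. With Cd209a, tested at the later ages alone, the list medians were 9.46 and 10.11. Of microglia markers 26 and 23 of 28 were called lower.

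Whether the contrast itself changed was tested as the difference of P56 minus P10, in which 58 of 13920 genes were called (0.417%), 53 larger (0.381%) and 5 smaller (0.0359%), and 36 of the 58 were also called at P10. Gpx3, a secreted glutathione peroxidase, was at 139, 139 and 162 CPM in microglia at P10 and 1.32 ± 1.07 CPM at P56 (n = 5), while pvMΦ were at 301, 301 and 366 CPM and 592 ± 186 CPM (n = 4), giving a difference of 7.83 ± 0.74 (adjusted p = 0.00017, edgeR). Mrc1 went from 348 ± 23 to 8.11 ± 4.27 CPM in microglia and was at 2537 ± 453 and 2579 ± 563 CPM in pvMΦ (5.46 ± 0.65). For both genes the difference lay mostly in microglia, whose P10 level was far above the adult one.

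Apoe went from 5568 ± 682 to 330.1 ± 103 CPM in microglia and from 35100 ± 2901 to 69015 ± 20134 CPM in pvMΦ (5.01 ± 0.36, adjusted p = 1.9e-05, edgeR). With limma the Apoe difference had the same direction and was not called (adjusted p = 0.97), and that of Mrc1 was not called either (adjusted p = 0.072). At P21 it was at 1886, 1953 and 2176 CPM in the 3 microglia libraries of batch S232 and 208 and 170.3 CPM in the 2 of batch S276. Cd74, in contrast, rose in pvMΦ, from 292 ± 44.9 to 7460 ± 2934 CPM, and was at 197 ± 21.4 and 33.5 ± 22 CPM in microglia (7.45 ± 0.77). Cd209b rose from 11 ± 4.55 to 280.3 ± 155 CPM in pvMΦ and stayed under 0.1 CPM on average in microglia (4.54 ± 0.86). Within batch S232 the differences of Gpx3, Cd74, Mrc1, Apoe and Cd209b were 8.51, 7.75, 5.31, 5.27 and 4.87, each called. Cd209b lost its call with the replicate number as a block (adjusted p = 0.094, edgeR) and with limma (adjusted p = 0.2).

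**Figure D5:**
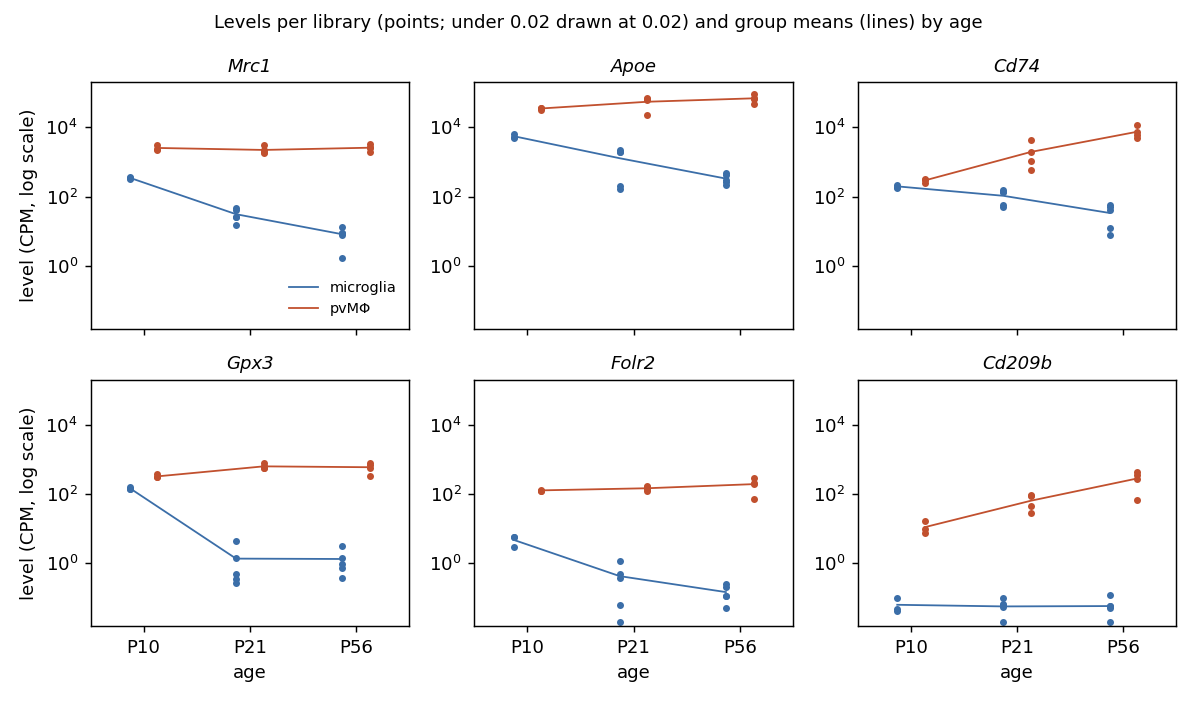
Levels of 6 genes whose contrast was larger at P56 than at P10, in each library (points, CPM on a log scale) with means (lines) by age, 3 to 5 libraries per population and age. Mrc1, Apoe, Gpx3 and Folr2 fall with age in microglia, as from 348 to 8.11 CPM for Mrc1, and Cd74 and Cd209b rise in pvMΦ.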

How the data were processed

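RNA was sequenced from sorted cells, by the labels' protocols after sorting into a stabilising reagent, full-length cDNA synthesis with an ultra-low-input kit that keeps no strand, and tagmentation. The values are integer counts per gene deposited by the authors. The submitters' processing notes list bcl2fastq 2.18, STAR 2.7.8a and featureCounts 2.0.2; which build, annotation or strand option was chosen is not given in the sources used here, so counts of overlapping and antisense genes are uncertain.

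Genes were kept by filterByExpr (minimum count 10, minimum total 15), which left 12393 of 53546, and the 6 libraries were compared in R 4.3.3 with edgeR 4.0.16 (TMM, robust quasi-likelihood fit), with Benjamini-Hochberg adjustment. The contrasts against mMΦ and at P21 and P56 were fitted on their own libraries, the later ages and the difference with a term for batch S276. CPM levels use TMM factors of all 45 libraries. Alternatives were DESeq2 1.42.0 size factors and Wald test, no filter, limma 3.58.1 (voomWithQualityWeights), 9 or 45 libraries, the replicate number as a block, libraries of batch S232 alone, and leaving out each library.

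The genes named are the 15 with the largest fold change in each direction among called, non-overlapping genes at 5 CPM or more in the higher group, the 10 largest at 200 CPM or more, up to 6 called and 2 uncalled members of each list, further factors, receptors and ligands for their role, and, for the difference of ages, up to 8 in each direction at 20 CPM or more. Genes without a proper name, mitochondrial, ribosomal and sex-linked genes were left out of the naming. Some genes that these rules name are not reported here. Col3a1, Dcn, and the genes given as without counts were chosen after their values were seen. Members, lists and tests were chosen with earlier results of these data known. P-values measure the spread between libraries.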

Additional observations from a re-analysis of the deposited data

Results flagged for a closer look

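The contrast of pvMΦ over microglia differed between P10 and P56 by a test of the difference itself (edgeR's quasi-likelihood test, P56 minus P10, log2 scale) for 9 named genes. It was larger at P56 for Gpx3 (7.83), Cd74 (7.45), Mrc1 (5.46), the folate receptor Folr2 (5.34), the adaptor Dok2 (5.34), Apoe (5.01), the chemokine Cxcl2 (4.82) and Cd209b (4.54), and smaller for the membrane protein Pmp22 (-1.07). Pmp22 was at 501 ± 6.84 against 217 ± 27.6 CPM at P10 and 742 ± 160.1 against 694 ± 72.3 CPM at P56. Gpx3, Cd74, Mrc1, Folr2 and Apoe were called in each of the 15 fits with 1 library left out, while Dok2 was called in 4, Cxcl2 and Cd209b in 5 and Pmp22 in 7 of them. With limma Mrc1, Apoe, Dok2, Cxcl2 and Cd209b were not called (adjusted p = 0.072, 0.97, 0.063, 0.14 and 0.2). Within batch S232 Dok2 and Pmp22 were not called (adjusted p = 0.1 and 0.054, edgeR), and with the replicate number as a block Dok2, Cxcl2, Cd209b and Pmp22 were not (adjusted p = 0.29, 0.36, 0.094 and 0.23, edgeR). Over all 45 libraries Cxcl2 was not called (adjusted p = 0.078, edgeR). A further fit left out 2 libraries that stand apart, microglia P56 replicate 2 and pvMΦ P56 replicate 3. In it Cxcl2 (4.89), Cd209b (4.70) and Pmp22 (-1.07) were not called (adjusted p = 0.076, 0.067 and 0.065, edgeR). It kept pvMΦ P56 replicate 2, which had a score of 121.8 on 1 principal component of the series.

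Dok2 in microglia P56 replicate 2 was at 0.364 CPM, far from the other 4 libraries of its group by Dixon's criterion at 95%, which flags about 1 group in 20 by chance. All 5 libraries were within a few counts of 0 for this gene, and the one set apart had the fewest counts of its group (9898257).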

How the results depend on the processing

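For the main comparison the direction of no named gene changed under any of the 13 alternatives. Of the 47 leading genes 45 to 47 were called with DESeq2 size factors, no filter, limma or the DESeq2 Wald test. Fewer were called in the other settings: 44 with the 9 libraries of P10, 37 with the replicate number as a block and 33 with all 45 libraries. Leaving out 1 library gave 39 to 41. The genes lost in these other settings were all on the microglial side. With all 45 libraries 645 genes were called against microglia at P10, 93 against mMΦ, 1610 at P21, 1816 at P56 and 94 in the difference of ages. The DESeq2 Wald test called 1185 genes against mMΦ, 1882 at P21 and 1466 at P56, limma 101 in the difference, and batch S232 alone 337 at P21, 253 at P56 and 105 in the difference. Leaving out 1 library gave 1233 to 1798 calls at P10 (1422, 1340 and 1233 without pvMΦ replicates 1, 2 and 3), 304 to 440 against mMΦ (lowest without pvMΦ replicate 3, also 341 without pvMΦ replicate 2 and 334 without mMΦ replicate 3), 504 to 1100 at P21 (504 without pvMΦ replicate 4, 586 without microglia replicate 1, 1100 without pvMΦ replicate 1, which stands apart), 320 to 427 at P56, and 41 to 141 in the difference (141 without pvMΦ P56 replicate 4). Whether same-numbered libraries come from the same mouse is not given in the labels, and the numbers were not taken as pairs in the main fits. Deviations of same-numbered pvMΦ and microglia libraries of P10 correlated by 0.029, 0.01 and 0.003, and those of unlike-numbered ones by -0.018 to 0.007. With so few libraries these values cannot settle whether the numbers are pairs. With the number as a block 1541 genes were called at P10, 329 against mMΦ, 350 at P21, 235 at P56 and 37 in the difference. In the difference 31 of the 105 calls of batch S232 alone were smaller at P56, against 5 of 58. Without microglia P56 replicate 2 and pvMΦ P56 replicate 3 together, 388 genes were called at P56 and 79 in the difference. Without pvMΦ P56 replicate 2 alone, which also stands apart on 1 principal component, the counts were 377 and 52. A gene not called is not shown to be equal.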
